A study of Mus musculus with 6 samples.

Results

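A set of 10 genes that encode transcription factors of mesenchymal cells was followed through mouse lung fibroblasts (FBs) and organoid FBs: Tcf21, Tbx2, Tbx4, Tbx5, Foxf1, Meox2, Ebf1, Twist1, Runx1 and Osr1. They were chosen by symbol, with earlier results of these data known. All 10 had a row in each of the 6 count tables, which list between 30828 and 32285 genes. The data were unique molecular identifiers (UMIs) counted per gene and cell barcode by droplet single-cell RNA sequencing, with 1 library per condition. In the single-dose experiment, Pdgfra-GFP reporter mice received 1 oropharyngeal dose of PBS or of bleomycin, a drug that injures the alveolar epithelium and leads to lung fibrosis, and GFP+ lung cells were sorted on day 14. The bleomycin dose is 2 U/kg in the protocol and 4 U/kg in the treatment field of the sample label. In the repetitive experiment, PDGFRa-EGFP mice aspirated PBS or bleomycin in each of 3 weeks. Bleomycin was given at 1 U/kg for the earlier doses and 0.5 U/kg for the last. Collection was on day 14, which the paper counts from the last dose. In the organoid experiment, GFP+ FBs of mice given PBS (normal) or 2 U/kg bleomycin (fibrogenic), harvested on day 14, were cultured in Matrigel with tomato+ type 2 alveolar epithelial cells (AEC2s) of tamoxifen-treated SpcCreER × Rosa-td26 donors. All lung cells were thus selected by a Pdgfra reporter, and the labels give 3 pooled mice per group, which leaves the variation from mouse to mouse unmeasured, and conditions were therefore compared without a test.

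These factors are part of the regulatory program that gives lung mesenchyme its identity. Tcf21 is a basic helix-loop-helix factor found in lipofibroblasts (LipoFBs), the lipid-storing FBs next to AEC2s, and T-box factors and Foxf1 pattern the mesenchyme of the embryonic lung. Twist1 and Osr1 are better known from connective tissue and its progenitors, Ebf1 from B cells and from stroma, and Runx1 from blood formation and from activated FBs. FBs that store lipid, FBs of the adventitia and matrix-rich sites (MatrixFBs) and contractile myofibroblasts (MyoFBs) are the populations in which they were compared.

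Cells were grouped by marker genes, none of which is one of the 10. A barcode with at least 1000 UMIs was called an FB when its mean score over 8 FB markers (Pdgfra and Col1a1 among them) was the highest of 8 cell type scores and no other exceeded 50% of it. This gave 901 and 816 FBs after single-dose PBS and bleomycin, 5280 and 7468 after repetitive PBS and bleomycin, and 2314 and 4801 in organoids with normal and fibrogenic FBs. FBs were then divided by subset markers, such as Plin2 and Wnt2 for the LipoFB gate, Pi16 and Dpt for the MatrixFB gate, and Cthrc1 and Postn for the MyoFB gate. A gate is a range of a score and not a cell type, and between 1.58% and 11.4% of the FBs of a library lay within a score difference of 0.05 of a gate's edge. The 8 summed LipoFB markers, which define the gate, stood between 6094 and 15214 counts per 1000000 UMIs (CPM) in the LipoFB gates and between 1149 and 3958 CPM in the MatrixFB gates. The libraries differed in depth, from 7201081 to 238618743 UMIs, and median UMIs per barcode were 2478 after repetitive bleomycin and 10178 after repetitive PBS. Between 2 and 28 barcodes were shared by both libraries of an experiment, and leaving them out changed no count of the 10 factors past a threshold. Levels are the UMIs of a gene summed over the cells of a group, as CPM of that group's UMIs, and brackets hold exact 95% intervals for counting error only. Levels differ between the single-dose and the repetitive tables, which list different gene sets, so libraries were compared within an experiment. RNA from other cells was also counted in each barcode. Col1a1, which lymphocytes do not make, stood at 29.8 CPM in T cells and at 2803 CPM in FBs of the repetitive bleomycin library. These levels were 21.6 and 693 CPM after repetitive PBS, 49.2 and 3076 CPM after single-dose bleomycin and 0 and 864 CPM after single-dose PBS. The highest lymphocyte level was 201 CPM, in 12 B cells after single-dose bleomycin.

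The positions of the genes and the bases before their start sites are shown because their levels went in opposite directions between groups of FBs. In the GRCm38 genome, Tcf21 lies on the minus strand at chr10:22817281-22820174 and Runx1 on the minus strand at chr16:92601466-92826149. Tbx2 (chr11:85832551-85841948) and Tbx4 (chr11:85886422-85916097) are neighbours on the plus strand, 44474 bases apart, and Ebf1 lies on the same chromosome at chr11:44617317-45008091. Tbx5 lies at chr5:119832668-119885219 and Foxf1 at chr8:121084386-121088144, and the start of the long noncoding RNA gene Fendrr lies 1276 bases from that of Foxf1. Meox2 (chr12:37108540-37179534), Twist1 (chr12:33957671-33959829) and Osr1 (chr12:9570116-9581500) share a chromosome. Predicted or noncoding genes overlap Tcf21, Foxf1, Meox2, Ebf1, Runx1 and Osr1, and how reads in the overlaps were assigned is not given in the sources used here.

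RefSeq start sites of GRCm38.p6 were at hand for 6 of the 10 genes, with 8 windows of 250 bases. Each window was searched on both strands for an E-box (CANNTG), and for motifs of RUNX (TGTGGT), forkhead (TGTTTAC), T-box (AGGTGTGA), AP-1 (TGANTCA) and TEAD (GGAATG) factors, and matches are in capitals. The Tcf21 window, on the minus strand at chr10:22820144-22820393, held none of the 6. The distal Runx1 window, at chr16:92826075-92826324 on the minus strand, held 3 E-boxes, which 66.2% of 32851 mouse windows of this length hold at least once. The proximal Runx1 window, at chr16:92697330-92697579 on the minus strand, held 1 TEAD motif, present in 12.6% of windows, and 27 CpG dinucleotides against a median of 6. Gene counts do not tell from which of these start sites Runx1 RNA came. The Meox2 window, at chr12:37108290-37108539 on the plus strand, held 2 RUNX motifs, a motif found in 14.0% of windows, and 1 E-box that overlaps the second of them. The Twist1 window, at chr12:33957421-33957670 on the plus strand, held no match and 18 CpG dinucleotides. Windows of Ebf1 and Tbx4, also on the plus strand, were searched too and are not printed. Ebf1 held 1 RUNX motif at chr11:44617850-44618099 and 1 E-box at chr11:44619978-44620227. Tbx4 held 3 E-boxes at chr11:85896515-85896764. A match is a string of letters and no evidence of binding.
Tcf21: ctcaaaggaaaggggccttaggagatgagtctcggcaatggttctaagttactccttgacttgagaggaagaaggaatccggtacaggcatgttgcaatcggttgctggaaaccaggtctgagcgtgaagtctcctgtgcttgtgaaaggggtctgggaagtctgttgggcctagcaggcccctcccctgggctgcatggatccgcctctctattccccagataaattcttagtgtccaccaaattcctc
Runx1, distal: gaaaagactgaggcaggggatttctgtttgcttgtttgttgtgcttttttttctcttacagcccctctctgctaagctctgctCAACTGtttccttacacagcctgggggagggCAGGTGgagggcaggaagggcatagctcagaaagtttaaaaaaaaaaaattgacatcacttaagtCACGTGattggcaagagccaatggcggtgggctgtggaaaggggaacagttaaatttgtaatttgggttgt
Runx1, proximal: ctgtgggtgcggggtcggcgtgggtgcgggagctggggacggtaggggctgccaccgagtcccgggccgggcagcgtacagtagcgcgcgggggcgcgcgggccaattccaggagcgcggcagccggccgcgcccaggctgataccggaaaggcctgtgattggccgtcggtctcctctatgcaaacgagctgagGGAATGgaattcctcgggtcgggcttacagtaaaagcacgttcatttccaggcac
Meox2: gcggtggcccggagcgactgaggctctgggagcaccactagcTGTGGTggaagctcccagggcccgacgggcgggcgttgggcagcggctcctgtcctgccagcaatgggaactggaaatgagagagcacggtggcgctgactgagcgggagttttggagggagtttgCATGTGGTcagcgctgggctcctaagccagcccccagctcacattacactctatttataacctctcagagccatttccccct
Twist1: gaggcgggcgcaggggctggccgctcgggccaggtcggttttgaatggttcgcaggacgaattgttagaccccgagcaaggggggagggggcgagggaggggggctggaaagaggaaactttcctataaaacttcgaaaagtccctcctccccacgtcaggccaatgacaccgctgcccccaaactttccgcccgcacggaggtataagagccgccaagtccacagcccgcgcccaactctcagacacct

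The first comparison asked which of the factors separate the FB subsets of the lung, whatever the exposure. Ebf1, Twist1 and Osr1 were higher in the MatrixFB than in the LipoFB gate, and Tcf21, Tbx2, Tbx4, Tbx5 and Meox2 were lower. Summed counts of both gates in the 4 lung libraries were compared with edgeR's quasi-likelihood test, with the library as a block, and p-values were adjusted by the Benjamini-Hochberg method over the 11778 genes tested. Of the 10 factors, 8 passed an adjusted p of 0.05, 3 higher and 5 lower, against 23.3% of all genes tested (13% higher and 10.3% lower in the MatrixFB gate). The factors and gates were chosen with earlier results of these data known, so the count describes these factors and is no test of enrichment. Since both gates were cut by marker genes measured in the same cells, the p-values say how far a difference repeats over libraries. Without the library as a block 4 of the 10 passed, against 429 of 11121 genes tested.

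Ebf1, the early B cell factor that also acts in adventitial and adipose stroma, showed the largest difference. Its level in the MatrixFB gate was 214 CPM after single-dose PBS, 282 CPM after single-dose bleomycin, 405 CPM after repetitive PBS and 345 CPM after repetitive bleomycin. In the LipoFB gate it was 0.95, 2.54, 2.97 and 12.7 CPM in the same order, so the gates were far apart in every library. The fitted log2 difference was 6.24 (SE 0.44, adjusted p = 5.15e-05 in edgeR). In cells thinned to 2000 UMIs, an Ebf1 UMI was seen in 35.0% of MatrixFB-gated and 0.486% of LipoFB-gated cells after repetitive PBS, and in 0 of 79 T cells of that library (exact upper bound 4.56%). Before thinning the shares were 53.6% (median 9377 UMIs), 1.52% (median 10819 UMIs) and 0% (median 3265 UMIs).

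Twist1, a basic helix-loop-helix factor of mesoderm, followed the same order at lower levels. It stood between 9.69 and 17.7 CPM in the 4 MatrixFB gates and between 0.19 and 1.11 CPM in the LipoFB gates, where it rested on 1, 3, 10 and 34 UMIs. The log2 difference was 4.57 (SE 0.51, adjusted p = 0.000353 in edgeR). The filter on low counts was met through the MatrixFB sums, so this p-value is no separate support for the higher level there. Osr1, a zinc finger factor of connective tissue progenitors, was measured in both gates. It stood at 227, 176, 154 and 145 CPM in the MatrixFB gates after single-dose PBS, single-dose bleomycin, repetitive PBS and repetitive bleomycin, against 59.8, 64.7, 32.7 and 50.7 CPM in the LipoFB gates. No MatrixFB gate overlapped a LipoFB gate, and the log2 difference was 1.78 (SE 0.14, adjusted p = 8.15e-05 in edgeR).

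Tcf21 was the member with the largest difference towards the LipoFB gate. Its levels there were 677, 346, 487 and 256 CPM after single-dose PBS, single-dose bleomycin, repetitive PBS and repetitive bleomycin, and its levels in the MatrixFB gate were 202, 97.9, 189 and 128 CPM. Each LipoFB gate was above each MatrixFB gate, with a log2 difference of −1.47 (SE 0.16, adjusted p = 0.000283 in edgeR). The 3 T-box genes among the 10 were lower in the MatrixFB gate. Tbx2, a repressor that keeps lung mesenchyme dividing, had a log2 difference of −1.28 (SE 0.10, adjusted p = 8.48e-05 in edgeR), from 180 to 241 CPM in the LipoFB and 70.5 to 105 CPM in the MatrixFB gates. Tbx4 and Tbx5, which act together in the growth and branching of the lung, had log2 differences of −1.16 (SE 0.12, adjusted p = 0.000299) and −0.94 (SE 0.13, adjusted p = 0.000946) in the same edgeR fit. All 3 T-box genes were lower in the MatrixFB gate of each of the 4 libraries, by between 0.62 and 1.40 on the log2 scale.

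Meox2, a homeobox gene of muscle and vessels, passed by a small margin, with a log2 difference of −0.49 (SE 0.14, adjusted p = 0.0405 in edgeR). It was lower in the MatrixFB gate of all 4 libraries, from −0.11 on the log2 scale after single-dose PBS to −1.03 after single-dose bleomycin. The single-dose PBS interval of Meox2 [−0.45 to 0.21] included 0. Without the single-dose PBS, the single-dose bleomycin or the repetitive bleomycin library, its adjusted p in edgeR was 0.0618, 0.106 or 0.0666. Foxf1, a forkhead factor of lung mesenchyme and endothelium that answers to Hedgehog signals, and Runx1 did not pass. For Foxf1 the log2 difference was 0.50 (SE 0.20, adjusted p = 0.120 in edgeR), and without the repetitive bleomycin library it was 0.73 (adjusted p = 0.0162). With no filter on low counts its adjusted p in edgeR was 0.0357. For Runx1 it was 0.25 (SE 0.23, adjusted p = 0.504 in edgeR), and −0.12 without the repetitive PBS library. Both were higher in the MatrixFB gate of the PBS libraries, by 1.38 and 0.82 on the log2 scale for Foxf1 and by 1.03 and 0.98 for Runx1 in the single-dose and repetitive experiments, where the single-dose interval of Runx1 [−0.25 to 2.16] included 0. After bleomycin these differences were 0.15 and −0.09 for Foxf1 and −0.03 and −0.39 for Runx1.

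**Figure D1:**
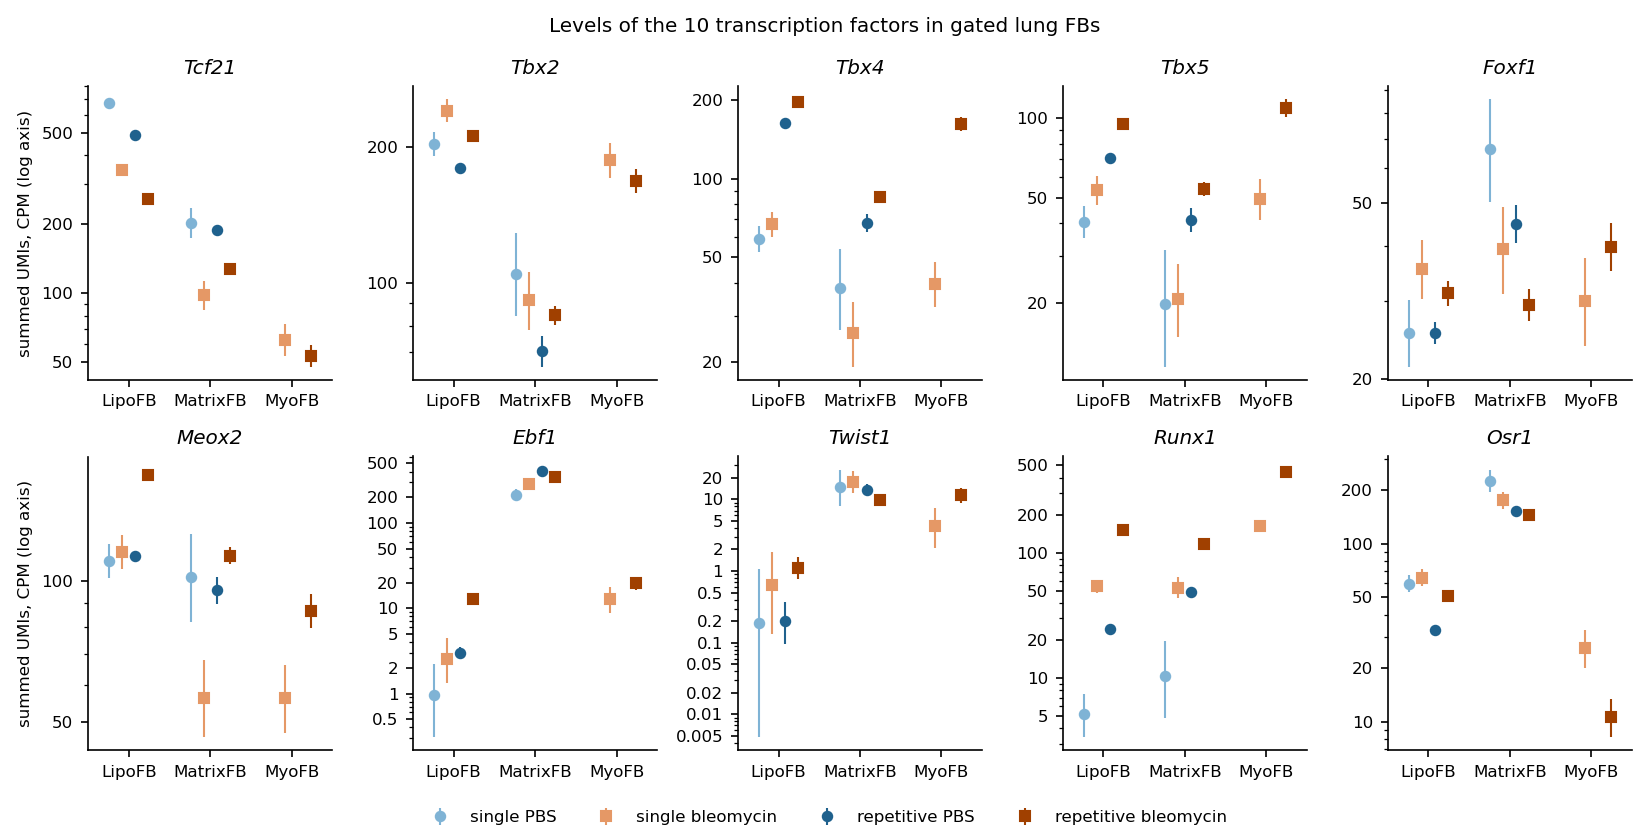
Level of each factor (vertical log axis, summed UMIs in CPM) in the LipoFB, MatrixFB and MyoFB gates of the 4 lung libraries, with exact 95% Poisson intervals as bars; circles are PBS and squares bleomycin libraries. Ebf1 stands at or below 12.7 CPM in every LipoFB gate and at or above 214 CPM in every MatrixFB gate, and the MyoFB gate is shown for the bleomycin libraries only.

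**Figure D2:**
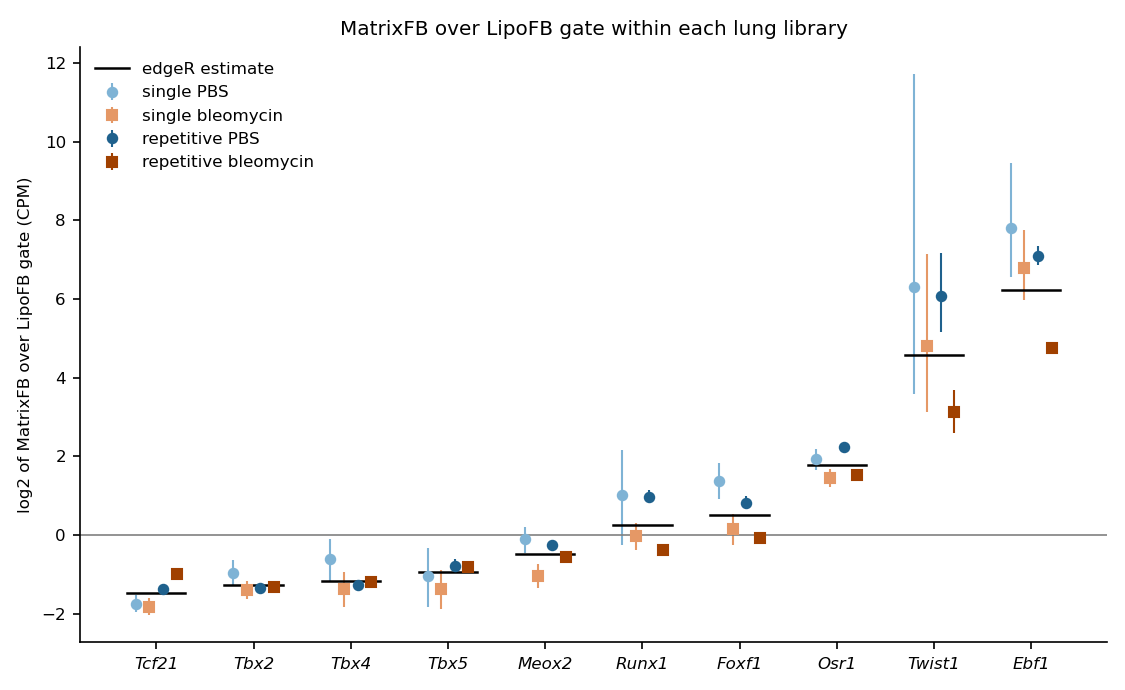
Log2 ratio of the MatrixFB over the LipoFB gate in each lung library (points with exact 95% counting intervals) and the edgeR estimate over the 4 libraries (black bars), with genes ordered by the estimate. The estimates run from −1.47 for Tcf21 to 6.24 for Ebf1.

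A list of 56 other mesenchymal factors and their partners, also chosen with earlier results of these data known, was read in the same fit. Of these, 52 were tested, 21 were higher and 9 lower in the MatrixFB gate at an adjusted p of 0.05 in edgeR, where all genes tested gave 13% and 10.3%. Some relatives of the factors had the same sign and others the opposite. Ebf2 (7.20), Ebf3 (6.24), Twist2 (5.50), Meox1 (3.91) and Osr2 (2.64) had positive log2 differences that passed, and the highest of the list was Ebf2. Genes with differences as large as those of Ebf2, Ebf3 and Twist2 can meet the filter on low counts through the MatrixFB sums alone. Their p-values are thus no separate support for a higher level there. Foxf2 had the lowest log2 difference of the list, at −1.73 (adjusted p = 6.06e-05 in edgeR), where Foxf1 was at 0.50 and did not pass. Meox1 was thus higher in the MatrixFB gate (adjusted p = 0.00462) and Meox2 lower. Tbx3 (−0.11), Ebf4 (−0.33) and Runx2 (−0.11) did not pass, nor did Tcf3 (0.17) and Tcf12 (−0.29), which encode partners of Tcf21 and Twist1. Tcf4, another such partner, was lower at −0.40 (adjusted p = 0.0275), and Cbfb, the partner of Runx proteins, was higher at 0.44 (adjusted p = 0.0406).

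The second comparison asked how the factors differed after bleomycin within LipoFB-gated cells. The gate is a range of marker scores, and its cells need not be in the same state after PBS and bleomycin. Tcf21 was lower and Runx1 higher in both experiments. For Tcf21 the single-dose libraries gave 677 CPM [655 to 700] with PBS and 346 CPM [329 to 363] with bleomycin, a log2 ratio of −0.97 [−1.05 to −0.88] or 1.96-fold lower. The repetitive libraries gave 487 CPM [481 to 494] with PBS and 256 CPM [251 to 262] with bleomycin, a log2 ratio of −0.93 [−0.96 to −0.89]. In cells thinned to 2000 UMIs, a Tcf21 UMI was found in 59.6% and 41.4% of cells after single-dose PBS and bleomycin, and in 52.2% and 34.4% after repetitive PBS and bleomycin. Unthinned shares were 85.5% and 82.8%, and 88.8% and 62.1%, at medians of 6986 and 11973.5, and 10819 and 8445 UMIs. T cells of the repetitive libraries showed one in 3.80% (PBS) and 0% (bleomycin) of thinned cells.

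Runx1 stood at 5.14 CPM [3.39 to 7.48], on 27 UMIs, after single-dose PBS. After single-dose bleomycin it stood at 54.1 CPM [47.7 to 61.2], on 256 UMIs, a log2 ratio of 3.40 [2.82 to 4.03] or 10.5-fold higher. After repetitive PBS and bleomycin it stood at 24.8 CPM [23.4 to 26.2] and 153 CPM [149 to 158], a log2 ratio of 2.63 [2.54 to 2.72] or 6.18-fold higher. The intervals of PBS and bleomycin did not overlap in either experiment. Thinned cells with a Runx1 UMI made up 0.826% and 8.44% in the single-dose and 3.75% and 21.3% in the repetitive experiment. Unthinned, these shares were 3.43%, 35.2%, 16.3% and 47.5%. Leucocytes also carry Runx1, with 389 CPM in the myeloid cells of the repetitive bleomycin library. The 8 summed myeloid markers stood at 63.5 CPM in its LipoFB gate and at 18.7 CPM in that of repetitive PBS, against 30836 and 13758 CPM in the myeloid cells of these libraries. The 8 MyoFB markers also differed within the LipoFB gate, at 162 and 1535 CPM after single-dose PBS and bleomycin and at 306 and 770 CPM after repetitive PBS and bleomycin. Their part in the levels of Tcf21 and Runx1 was not tested.

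With 1 library per condition, a gene was counted as past 2-fold when it had at least 50 UMIs in the compared sums and a log2 ratio of at least 1 in size. After a single dose, 8 of the 10 factors had enough UMIs, and 1, Runx1, was past 2-fold, against 9.23% of 9527 genes (5.93% higher and 3.3% lower). Runx1 met the limit of 50 UMIs there through the bleomycin library. After repetitive doses, 9 had enough UMIs, and 2, Runx1 and Ebf1, were past 2-fold, against 11.9% of 14013 genes (8.74% higher and 3.19% lower). Tcf21 lay just short of the limit in both, and passed it when ratios were centred on the median gene, at −1.03 in each experiment. The median gene of the repetitive LipoFB gate was at 0.11, and the values relative to it are 2.52 for Runx1 and 1.99 for Ebf1.

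The remaining factors differed less. Relative to the median gene of the repetitive experiment, Osr1 was at 0.52, Meox2 at 0.47, Tbx5 at 0.32, Foxf1 at 0.19, Tbx4 at 0.16 and Tbx2 at 0.13. Uncentred, the repetitive log2 ratios were 0.63 [0.53 to 0.73] for Osr1, 0.57 [0.52 to 0.63] for Meox2 and 0.43 [0.36 to 0.50] for Tbx5. They were 0.30 [0.17 to 0.42] for Foxf1, 0.27 [0.22 to 0.32] for Tbx4 and 0.24 [0.19 to 0.29] for Tbx2. In the single-dose experiment the uncentred log2 ratios were 0.12 [−0.12 to 0.35] for Osr1, 0.07 [−0.11 to 0.24] for Meox2, 0.39 [0.13 to 0.66] for Tbx5, 0.48 [0.14 to 0.82] for Foxf1, 0.18 [−0.05 to 0.41] for Tbx4 and 0.25 [0.12 to 0.37] for Tbx2. The intervals of Osr1, Meox2 and Tbx4 included 0 after the single dose. Among the 5 factors whose single-dose interval excluded 0, Runx1, Tbx2, Tbx5 and Foxf1 were higher and Tcf21 lower in both experiments.

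Ebf1 rested on few UMIs in LipoFB-gated cells, 5 and 12 after single-dose PBS and bleomycin (log2 ratio 1.42 [−0.19 to 3.27]) and 147 and 389 after repetitive PBS and bleomycin (2.10 [1.82 to 2.38]). With each cell weighted equally in place of summed UMIs, the second ratio was 3.66. The 8 MatrixFB markers summed to 1831 and 2064 CPM and the 8 B cell markers to 1.3 and 6.0 CPM in the repetitive LipoFB gates of PBS and bleomycin. Ebf1 stood at 2709 CPM in the B cells of the repetitive bleomycin library and had no UMI in its myeloid cells (exact upper bound 2.97 CPM). Whether B cell RNA had a part in the Ebf1 of this gate was not tested. Twist1 had 1 and 3 UMIs after the single dose (log2 ratio 1.74 [−1.90 to 7.45]) and 10 and 34 after repetitive doses (2.46 [1.41 to 3.64]), and was left out of the counts.

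**Figure D3:**
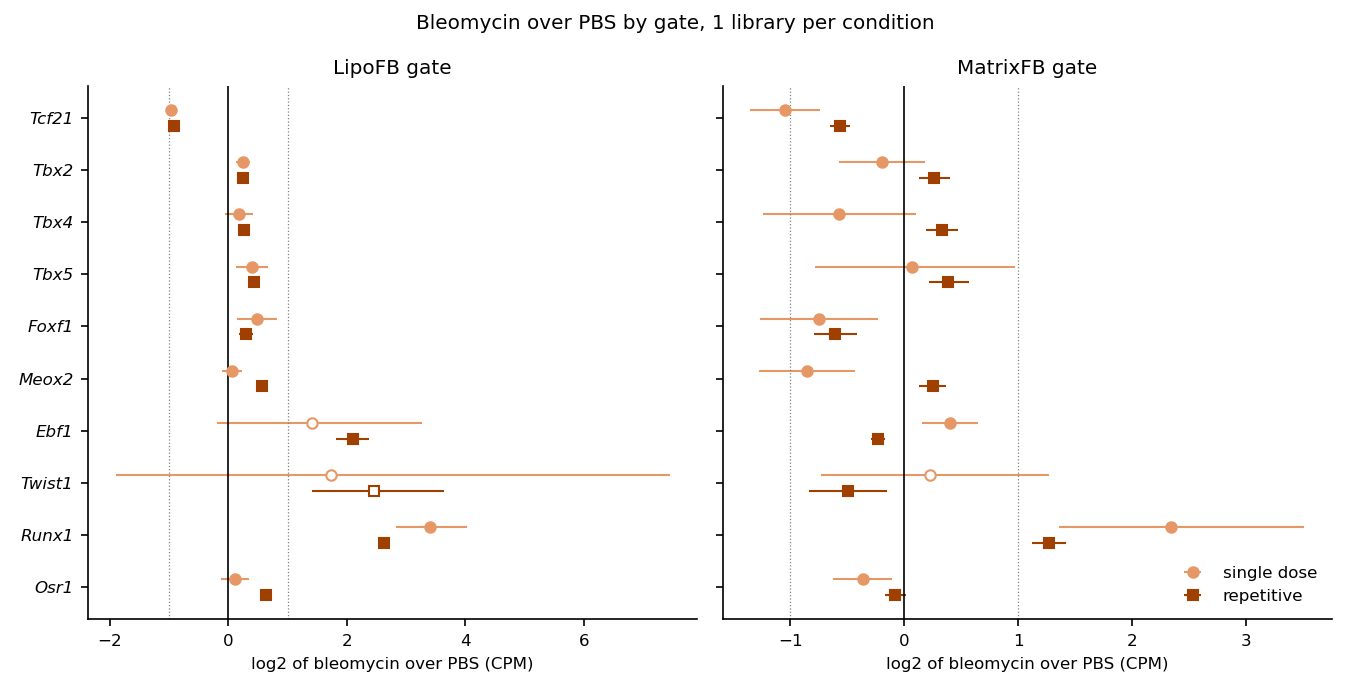
Log2 ratio of bleomycin over PBS (horizontal axis, CPM) for the 10 factors in the LipoFB and MatrixFB gates, with exact 95% counting intervals; open symbols rest on fewer than 50 UMIs, and dotted lines mark a log2 ratio of 1 in either direction. In the LipoFB gate Tcf21 stands near −0.97 and −0.93, and Runx1 at 3.40 and 2.63.

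The list of 56 other factors was read in the LipoFB gate too. After the single dose, 39 had enough UMIs, 2 were past 2-fold higher and 1 lower, where all genes gave 5.93% and 3.3%, from Prrx2 at 1.58 to Hoxb5 at −1.07. After repetitive doses, 49 had enough UMIs, 13 were past 2-fold higher and 1 lower, where all genes gave 8.74% and 3.19%, with Lef1, a partner of beta-catenin, the highest at 4.09 and Creb5 the lowest at −1.27. Relatives among them were Runx2 (2.77), Ebf2 (2.88), Osr2 (1.78) and the Foxf1 neighbour Fendrr (1.33). The list's median was 0.08 after the single dose and 0.35 after repetitive doses, where the medians of all genes were 0.06 and 0.11.

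Tcf21 and Runx1 were also read in the same cells. Among thinned LipoFB-gated cells of the repetitive bleomycin library, 23.6% [21.6 to 25.8] of 1599 cells without a Tcf21 UMI and 16.9% [14.4 to 19.6] of 839 cells with one had a Runx1 UMI. After repetitive PBS the shares were 4.94% [4.05 to 5.97] and 2.66% [2.04 to 3.41]. After single-dose bleomycin they were 9.46% [5.95 to 14.1] and 7.01% [3.55 to 12.2], and after single-dose PBS 2 of 293 and 4 of 433 cells had one. Exact binomial intervals did not overlap in the repetitive libraries and overlapped in the single-dose libraries. Cells of a library are not replicates, and no test was made.

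In MatrixFB-gated cells Runx1 was again higher and Tcf21 lower after bleomycin in both experiments. Runx1 stood at 10.5 and 53.0 CPM after single-dose PBS and bleomycin, a log2 ratio of 2.34 [1.36 to 3.51], and at 48.7 and 117 CPM after repetitive PBS and bleomycin, a log2 ratio of 1.27 [1.12 to 1.42]. Tcf21 had log2 ratios of −1.05 [−1.35 to −0.74] and −0.56 [−0.65 to −0.47]. These 2 factors were past 2-fold among 9 with enough UMIs after the single dose (7.01% of all genes, 4.35% higher and 2.66% lower). Runx1 rested on 9 UMIs after single-dose PBS and 105 after single-dose bleomycin, and met the limit on UMIs through the bleomycin library. Its place in the single-dose count is thus no separate support for a higher level. After repetitive doses Runx1 alone was past 2-fold among 10 (6.54%, 4.62% higher and 1.91% lower). With each cell weighted equally, the single-dose ratios were 1.37 for Runx1, −0.92 for Tcf21 and −1.11 for Foxf1, so that Foxf1 took the place of Tcf21, and the repetitive ratio of Runx1 was 1.496. Foxf1 was lower in both, at −0.75 [−1.26 to −0.23] and −0.61 [−0.80 to −0.42]. Osr1 was at −0.37 and −0.08, and 5 factors (Tbx2, Tbx4, Meox2, Ebf1 and Twist1) had opposite signs in the 2 experiments. For Tbx2, Tbx4 and Twist1 the single-dose interval included 0, so only Meox2 and Ebf1 had opposite signs beyond counting error. The repetitive bleomycin MatrixFB gate held 3304 cells with a median of 2788 UMIs, against 910 cells and 9377 UMIs after PBS, and the plasma cell markers summed to 88.6 and 1.1 CPM in them. The part of depth and of other cells in these ratios was not tested.

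Over all FBs, the ratios also carry the shift between gates. The MatrixFB gate made up 14.4% and 26.6% of FBs after single-dose PBS and bleomycin and 17.2% and 44.2% after repetitive PBS and bleomycin. The LipoFB gate made up 84.1% and 47.1%, and 82.2% and 42.1%. Fewer cells of a subset and less RNA per cell cannot be told apart in such sums. Past 2-fold after the single dose were 4 of 10 factors, Tcf21 lower and Runx1, Twist1 and Ebf1 higher. Of all genes, 13.2% were past 2-fold there (8.82% higher and 4.38% lower). Runx1 rested on 36 and 884 UMIs and Twist1 on 16 and 72 after single-dose PBS and bleomycin. Both met the limit on UMIs through the bleomycin library, so their places in this count are no separate support for higher levels. After repetitive doses 3 of 10 were past 2-fold, Tcf21 lower and Runx1 and Twist1 higher, against 15.6% (12% higher and 3.57% lower). Ebf1 lay close to the 2-fold limit in both. Its single-dose ratio was 0.95 when centred on the median gene, 0.99 without the mitochondrial and erythrocyte filter and 0.86 with mixed barcodes kept, and its repetitive ratio was 1.14 with each cell weighted equally. Tcf21 had log2 ratios of −1.61 [−1.68 to −1.53] and −1.27 [−1.30 to −1.23], both larger in size than within the LipoFB gate. Runx1 had 3.86 [3.38 to 4.38] and 2.63 [2.56 to 2.71], and Twist1 1.41 [0.62 to 2.29] and 1.35 [1.07 to 1.65]. Ebf1 stood at 30.9 and 63.1 CPM after single-dose PBS and bleomycin (log2 ratio 1.03) and at 64.0 and 126 CPM after repetitive PBS and bleomycin (log2 ratio 0.98), while its level within MatrixFB-gated cells had ratios of 0.40 and −0.23. Tbx2 was at −0.02 and −0.01, and Tbx4, at −0.18 and 0.05, had no steady sign, since the repetitive value turned to −0.08 when centred on the median gene at 0.13. Meox2 had opposite signs, at −0.40 [−0.54 to −0.25] after the single dose and 0.32 [0.27 to 0.36] after repetitive doses. Osr1 was at −0.12 [−0.28 to 0.04] and 0.59 [0.53 to 0.66], and the first turned to 0.15 with each cell weighted equally. Of the other factors, 6 were past 2-fold higher and 1 lower among 48 after the single dose, and 15 higher and 2 lower among 54 after repetitive doses, with Scx (3.44) and Lef1 (5.28) the highest and Hoxb5 (−1.07) and Pparg (−1.10) the lowest.

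The third comparison set MyoFB-gated against LipoFB-gated cells within each bleomycin library, where 148 and 512 MyoFB-gated cells were found. PBS libraries held 0 and 4. Tcf21 and Osr1 were lower and Runx1 higher in the MyoFB gate of both. Tcf21 stood at 62.8 CPM [53.6 to 73.3] in the MyoFB and 346 CPM in the LipoFB gate after the single dose, a log2 ratio of −2.46 [−2.70 to −2.23], and at 53.5 CPM [47.9 to 59.5] and 256 CPM after repetitive doses, a ratio of −2.26 [−2.42 to −2.10]. Osr1 stood at 25.8 and 64.7 CPM (−1.32 [−1.73 to −0.94]) and at 10.6 and 50.7 CPM (−2.26 [−2.64 to −1.91]). Runx1 stood at 165 CPM [150 to 181] and 54.1 CPM (1.61 [1.38 to 1.84]) and at 444 CPM [428 to 461] and 153 CPM (1.54 [1.47 to 1.60]).

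Meox2 was lower in the MyoFB gate by similar amounts, with log2 ratios of −1.04 [−1.31 to −0.77] and −0.96 [−1.09 to −0.83]. Twist1 rested on 11 UMIs in the single-dose MyoFB gate, and stood at 11.4 and 1.11 CPM after repetitive doses, a log2 ratio of 3.36 [2.75 to 3.99]. Past 2-fold were 4 of 8 factors with enough UMIs after the single dose, against 9.08% of all genes (3.69% higher and 5.39% lower), and 4 of 10 after repetitive doses, against 12.8% (5.44% higher and 7.33% lower). Tcf21, Osr1 and Runx1 were among them in both, with Meox2 after the single dose and Twist1 after repetitive doses. Twist1 rested on 72 UMIs in the MyoFB and 34 in the LipoFB gate after repetitive doses. It met the limit on UMIs through the MyoFB gate, so its place in the count is no separate support for a higher level. Tbx5 (−0.11 and 0.20), Foxf1 (−0.24 and 0.35), Tbx2 (−0.36 and −0.34) and Tbx4 (−0.75 and −0.28) were within 2-fold in both. With each cell weighted equally, the single-dose ratio of Meox2 was −0.83, short of 2-fold. The repetitive ratios of Tcf21, Osr1 and Twist1 under this weighting were −1.64, −1.22 and 2.38, and that of Ebf1 turned from 0.62 to −0.15. Among the other factors, Scx, a tendon factor, was the highest in both, at 4.27 and 6.20, and Meox1 was at 4.04 and 4.75, where Meox2 was lower. Runx2 was at 2.02 and 1.71, and the lowest were Snai2 (−1.70) and Pparg (−2.02). Twist2 was at 3.72 after repetitive doses.

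The same cells were also laid out along the MyoFB score, with LipoFB-gated, MyoFB-gated and ungated FBs of each library cut into 5 bins. The score is the one that sets the MyoFB gate, so the bins are a finer view of the comparison above and no further evidence. LipoFB-gated cells made up 91.9% of the lowest and 10.9% of the highest bin after single-dose bleomycin, and 85.3% and 33.0% after repetitive bleomycin. In the single-dose bleomycin library, Tcf21 was at 327, 331, 354, 194 and 72.7 CPM from the lowest to the highest bin, and Runx1 at 47.6, 53.7, 51.8, 112 and 162 CPM. In the repetitive bleomycin library Tcf21 was at 220, 226, 284, 260 and 107 CPM, and Runx1 at 143, 176, 147, 167 and 361 CPM. In both libraries Tcf21 was lowest and Runx1 highest in the top bin. Runx1 stayed between 2.97 and 6.91 CPM in all 5 bins after single-dose PBS and between 11.1 and 34.3 CPM after repetitive PBS. Tcf21 ran the other way in the PBS libraries, from 461 CPM in the lowest to 854 CPM in the highest bin after single-dose PBS and from 372 to 640 CPM after repetitive PBS. In these PBS libraries the lowest bins held cells with a median score of 0, so their order is arbitrary there. Meox2 and Osr1 were lowest in the top bin of both bleomycin libraries. Bins also differed in depth, with median UMIs between 2235 and 12847 in the repetitive bleomycin library, and the part of depth was not tested.

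**Figure D4:**
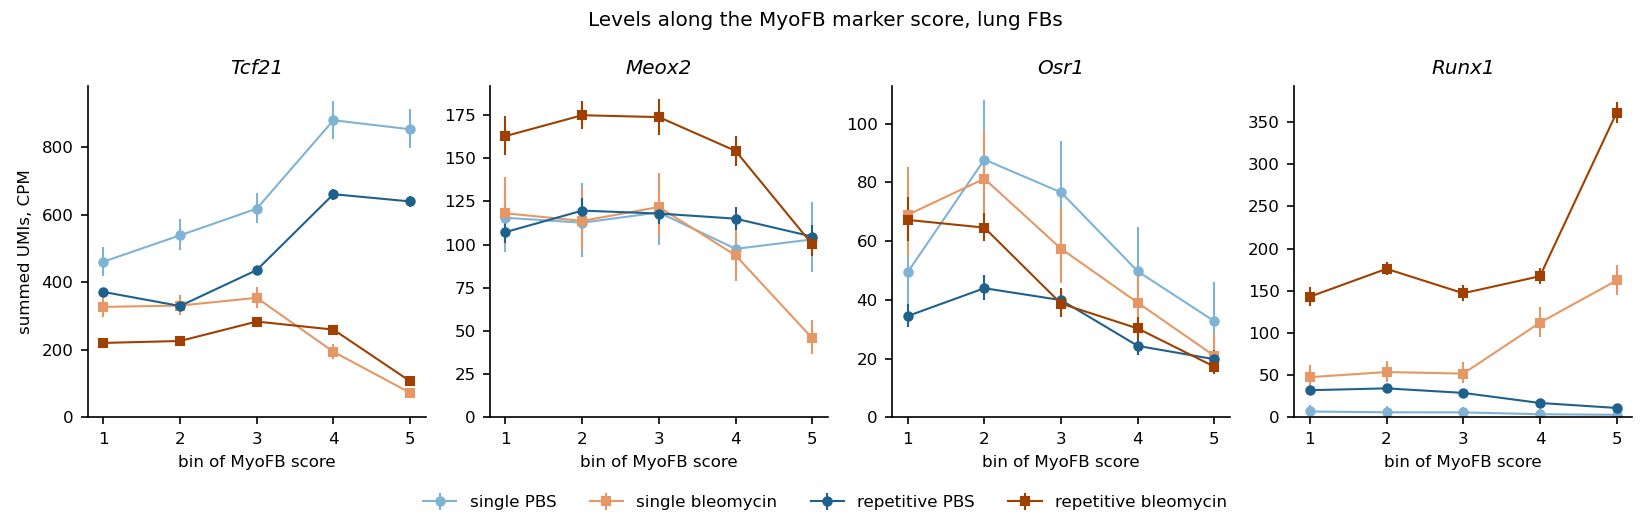
Levels of Tcf21, Meox2, Osr1 and Runx1 (vertical axis, summed UMIs in CPM) in 5 bins of equal cell number along the MyoFB marker score (horizontal axis), with exact 95% Poisson intervals; circles are PBS and squares bleomycin libraries. In the top bin after repetitive bleomycin, Runx1 reaches 361 CPM and Tcf21 stands at 107 CPM.

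Smaller groups of lung cells were also read, with few cells each. For comparison, the MatrixFB gate after repetitive bleomycin held Osr1 at 145 CPM and Ebf1 at 345 CPM. In the gate of mesothelial markers (MEFB gate) of the repetitive bleomycin library, 22 cells held Twist1 at 109 CPM [80.0 to 145] and Osr1 at 146 CPM, with Tcf21 at 41.7 CPM, and the 12 such cells after single-dose bleomycin held Twist1 at 88.2 CPM. In the gate of proliferation markers (PMP gate) after repetitive bleomycin, with 30 cells, Ebf1 stood at 292 CPM [255 to 332] and Runx1 at 218 CPM. The 55 cells of the smooth muscle gate held Ebf1 at 182 CPM and Tcf21 at 87.5 CPM. Outside the FBs, Foxf1 was highest in endothelial cells, at 638, 458 and 369 CPM after single-dose PBS, repetitive PBS and repetitive bleomycin, with between 17 and 51 cells each, and at most 66.3 CPM in any gate of FBs that held 50 or more cells. Tbx2 stood at 193 CPM and Ebf1 at 141 CPM in the endothelial cells after repetitive PBS. Ebf1 was found at 2743 CPM in B cells, and Runx1 at 619, 530 and 294 CPM in myeloid, T and B cells of that library. In its T cells Tcf21 stood at 7.19 CPM and Tbx5, Foxf1 and Meox2 had no UMI.

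Organoids were compared last, after culture of the FBs with AEC2s. Most FBs of both libraries, 70.5% with normal and 64.0% with fibrogenic FBs, fell in the MyoFB gate, and 17.8% and 15.6% in the PMP gate, while the LipoFB and MatrixFB gates held 4 or 5 cells each. Tbx2 and Tbx4 were the factors that differed most between the libraries. Tbx2 stood at 48.6 CPM with normal and 22.5 CPM with fibrogenic FBs, a log2 ratio of −1.11 [−1.17 to −1.05], and Tbx4 at 24.4 and 12.3 CPM, a ratio of −0.98 [−1.06 to −0.90]. Within the MyoFB gate alone, Tbx2 stood at 48.6 and 24.4 CPM and Tbx4 at 23.3 and 13.7 CPM. Meox2 was at 6.42 and 3.94 CPM (−0.70 [−0.85 to −0.55]) and Runx1 at 158 and 113 CPM (−0.48 [−0.51 to −0.45]). Tbx2 alone of the 10 was past 2-fold, against 4.25% of 16295 genes (1.49% higher and 2.76% lower). Within the MyoFB gate its ratio was just short of 2-fold.

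The remaining 6 factors were within 2-fold in the summed counts. Tcf21 stood at 19.97 and 19.92 CPM, Foxf1 at 20.8 and 20.2 CPM and Tbx5 at 14.5 and 12.1 CPM with normal and fibrogenic FBs. Ebf1 was at 65.4 and 79.2 CPM, Twist1 at 25.1 and 27.8 CPM and Osr1 at 15.4 and 19.0 CPM. The median FB held 48197.5 UMIs in the library with normal and 6070 UMIs in that with fibrogenic FBs. Over all barcodes the medians were 36841 and 4289.5 UMIs. With each cell weighted equally, Tbx2, Tbx4 and Meox2 were past 2-fold at −1.54, −1.56 and −1.07, and Runx1 was at −0.96, Tbx5 at −0.72, Foxf1 at −0.32, Tcf21 at −0.30 and Ebf1 at 0.02. Twist1 (0.15) and Osr1 (0.30) turned to −0.25 and −0.23. Of the other factors, 0 of 54 were past 2-fold higher and 1 lower, the Hedgehog target Gli1 at −2.24, with Creb5 the highest at 0.94. Organoid epithelial cells held Runx1 at 76.0 and 87.6 CPM, and at most 2.71 CPM of each of the other 9 factors. The organoid libraries were not compared with the lung libraries by test. For reading side by side, FBs held Tcf21 at 19.92 to 19.97 CPM in organoids and at 183 to 602 CPM in lung, and Twist1 at 25.1 to 27.8 CPM in organoids and at 2.35 to 6.86 CPM in lung.

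**Figure D5:**
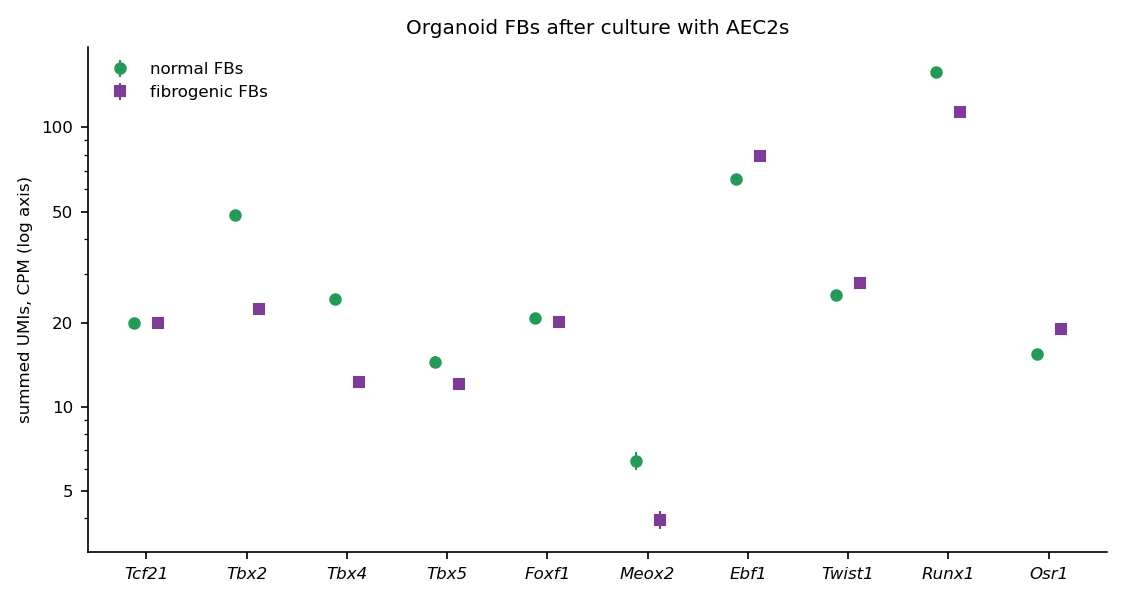
Levels of the 10 factors in organoid FBs (vertical log axis, summed UMIs in CPM) with normal (circles) and fibrogenic FBs (squares), with exact 95% Poisson intervals, most of them smaller than the symbols. Tbx2 and Tbx4 are lower with fibrogenic FBs, at 22.5 against 48.6 CPM and 12.3 against 24.4 CPM.

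For each factor, the genes most like it were sought by Pearson's r of log2(CPM + 1) over the 12 lung gate sums with at least 50 cells, among 12896 genes outside the 10 and the gate markers. Several of these sums share a library, and together they pool the single-dose and repetitive experiments, which differ in depth and listed genes. Tbx4, for example, stood at 59.0 CPM in the LipoFB gate after single-dose PBS and at 163 CPM after repetitive PBS. An offset of this kind enters r, its part was not tested, and the correlations are a description. Tcf21 was most like G0s2 (r = 0.98), a regulator of lipolysis, and Tmem205. Ebf1 was most like Gata6 (r = 0.99) and Anpep, Twist1 like Phgdh and Ahnak2, and Runx1 like Piezo2 (r = 0.98), a mechanosensitive channel, and Pmepa1, a target of TGF-beta. Tbx2 was most like Fam210b and Socs2, Tbx4 like Pik3r1 and Pag1, and Tbx5 like Psmc6 and Cog4. Foxf1 had no partner above r = 0.87, with Ndp and the forkhead gene Foxl1 (r = 0.86) its nearest. Meox2 was most like Cyp20a1 and Pde9a, and Osr1 like Hfe and Tpbgl. Among the 10 themselves, r was 0.92 for Tbx4 and Tbx5, 0.89 for Ebf1 and Twist1, −0.93 for Tbx2 and Ebf1, −0.81 for Tbx5 and Osr1, −0.80 for Tbx2 and Twist1 and −0.79 for Tcf21 and Runx1. Tbx2 had r = 0.40 with Tbx4 and 0.53 with Tbx5.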

How the data were processed

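Droplet single-cell libraries of 6 conditions, 1 per condition, were used. Per the labels' processing notes the authors used Cell Ranger 3.0.1, Seurat 3 and the mm10 genome, and the tables they deposited hold raw UMI counts per gene symbol and barcode, without normalization. Total counts ranged from 7201081 to 238618743 per library. Counts were read with Python 3.11.15, numpy 2.4.6, scipy 1.17.1 and pandas 2.3.3. Barcodes needed at least 1000 UMIs, mitochondrial counts within 3 scaled median absolute deviations above the library's median and at most 0.5% erythrocyte counts. Cell types and FB subsets were gated by mean log-scaled marker levels with at least 3 markers detected. Subset scores were divided by their 99th percentile in the lung libraries and had to reach 0.25. FBs with at least 3 proliferation markers formed the PMP gate. Barcodes whose second cell type score exceeded 50% of the first were removed, between 36 and 637 per library, which also served as the treatment of doublets. No doublet caller was run.

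UMIs were summed per gate. The gates of the 4 lung libraries were compared by edgeR 4.0.16 (filterByExpr, TMM, quasi-likelihood, library as a block, gate markers left out), with DESeq2 1.42.0 as an alternative. The block pairs gates of the same pooled mice. Other comparisons had 1 library per group and no test, with exact binomial intervals of ratios and exact Clopper-Pearson intervals of shares. Intervals cover counting error only. The edgeR step was tested on simulated data, and the outcome is not used here as support for any result. The text names all 10 factors, the highest and lowest of a list of 56 other factors, their relatives and partners, and the 2 genes most like each factor. The 10 factors, the lists and the gates were chosen with earlier results of these data known. Alternatives changed the gate's strictness, the minimum of UMIs (2000), cell filters, weighting, scaling, pseudocount (1 CPM), gene filter (10 UMIs), tool, block and libraries. Counts in the MatrixFB gate by exposure and the removal of shared barcodes were added after seeing the data.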

Additional observations from a re-analysis of the deposited data

Results flagged for a closer look

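Several ratios of bleomycin over PBS had opposite signs, with counting intervals apart, in 2 groups of cells or 2 experiments. None of these differences was tested, since each rests on 1 library per condition. Over all FBs, Meox2 had a log2 ratio of −0.40 after the single dose and 0.32 after repetitive doses. In the MatrixFB gate, Meox2 had a log2 ratio of −0.86 after the single dose and 0.25 after repetitive doses, and Ebf1 had 0.40 and −0.23. Foxf1 was higher in the LipoFB and lower in the MatrixFB gate, at 0.48 and −0.75 after the single dose and at 0.30 and −0.61 after repetitive doses. After repetitive doses Ebf1 had 2.10 in the LipoFB and −0.23 in the MatrixFB gate. Twist1 had 2.46 in the LipoFB gate, on 10 and 34 UMIs, and −0.50 in the MatrixFB gate.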

How the results depend on the processing

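Of 130 recomputed values of the tested difference between gates, 120 kept their direction and call, 7 no longer passed, 2 passed anew and 1 reversed. Of 756 recomputed ratios without a test, 699 stayed within counting error and 57 moved further. Among them 17 changed sign, 6 beyond counting error, and 12 crossed the 2-fold limit. The gene filter of 10 UMIs changes which genes are counted and no ratio, so the ratios recomputed with it were bound to stay. The number of factors past 2-fold in organoids was 3 in place of 1 with each cell weighted equally. In the single-dose LipoFB gate it was 2 in place of 1 when ratios were centred on the median gene, and also 2 with genes of at least 10 UMIs. In the repetitive LipoFB gate it was 3 in place of 2 when centred, with each cell weighted equally and with genes of at least 10 UMIs, and in the single-dose MyoFB comparison it was 6 in place of 4 with genes of at least 10 UMIs, which adds Ebf1 and Twist1. For the MatrixFB against the LipoFB gate, the fit with no replicate block did not pair the gates of a library. It called 4 factors in place of 8, and 429 of 11121 genes in place of 2748 of 11778. Tcf21 (−1.55), Tbx4 (−1.13), Tbx5 (−0.91) and Meox2 (−0.46) no longer passed, with log2 differences close to those with the block and larger errors. With each lung library left out in turn, 7 to 8 factors were called. All genes gave 2217 of 12470 without single-dose PBS and 2227 of 12455 without single-dose bleomycin. They gave 1911 of 11221 without repetitive PBS and 2369 of 11126 without repetitive bleomycin. The log2 difference of Runx1 ran from −0.12, a reversal, without repetitive PBS to 0.56 without repetitive bleomycin, and the cause was not tested. PBS and bleomycin were not compared as pairs over both lung experiments, which differed in dosing, and no such fit was made. Twist1 in LipoFB-gated cells rested on between 1 and 34 UMIs, so its ratios there have wide counting intervals.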
